A study of Mus musculus with 33 samples.

Results

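The genes described here encode 10 proteins that developing neutrophils make and store at different steps of their maturation, followed through the livers of Nlrp3 mutant and wild-type mice. They were taken from the deposited gene count table by symbol. All 10 of the 10 named genes were found, among 19169 genes in the table, and all 10 were among the 14934 genes with enough counts to be tested. The primary granule set holds Mpo, Elane, Prtn3, Ctsg and Ms4a3. The secondary granule and mature set holds Ltf, Camp, Ngp, Cd177 and Retnlg.

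Polyadenylated RNA of 33 liver libraries was sequenced. The KI mice carried Nlrp3A350V/+CreT, a gain-of-function knock-in allele of the inflammasome sensor Nlrp3 that a tamoxifen-inducible Cre recombinase switches on, and WT mice served as their reference. The stress kinase ASK1 was targeted with the selective inhibitor GS-444217, given in the diet for 6 weeks (ASK1i), and the other mice had control chow, which the labels pair with placebo. There were 10 KI ASK1i libraries (5 female, 5 male), 5 KI control libraries (1 female, 4 male), 8 WT ASK1i libraries (4 female, 4 male) and 10 WT control libraries (7 female, 3 male). The labels do not give the age of the mice, the cell types in which the Cre is active, or whether WT mice received tamoxifen. Whether every library comes from its own mouse is not stated either, and the p-values below describe variation from library to library.

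Neutrophil granules are filled in sequence. Promyelocytes, an early stage, make the primary (azurophil) granules with myeloperoxidase and the serine proteases. Transcription of these genes is shut off as the cells become myelocytes. Myelocytes and later cells then make the secondary (specific) granules with lactoferrin and cathelicidin, and the last products to be made are those kept by the mature cell. Circulating neutrophils hold primary granule proteins but little of their mRNA. Within the neutrophil lineage, RNA of the primary set is therefore a sign of immature cells. Early granule genes are known targets of PU.1, a factor of the ETS family, and of C/EBP alpha, RUNX1 and MYB, whereas C/EBP epsilon is needed for secondary granules.

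The members moved together in KI livers, both within and across the sets. The sequences around their start sites were read from RefSeq (GRCm38.p6), 250 bases before and 50 bases after the start. All 10 genes matched. The 4 shown are a neighbouring pair of primary granule genes, Elane (chr10:79886062-79886361, plus strand) and Prtn3 (chr10:79879417-79879716, plus strand), and a pair of secondary granule genes, Ltf (chr9:111019042-111019341, plus strand) and Ngp (chr9:110419558-110419857, plus strand). They are written 5′ to 3′, and capitals mark motif matches on either strand.
Elane: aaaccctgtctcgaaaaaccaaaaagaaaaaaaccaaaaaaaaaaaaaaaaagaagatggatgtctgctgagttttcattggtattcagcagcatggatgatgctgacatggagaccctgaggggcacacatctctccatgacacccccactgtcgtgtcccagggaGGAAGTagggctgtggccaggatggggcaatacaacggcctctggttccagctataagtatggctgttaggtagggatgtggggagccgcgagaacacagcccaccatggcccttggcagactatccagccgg
Prtn3: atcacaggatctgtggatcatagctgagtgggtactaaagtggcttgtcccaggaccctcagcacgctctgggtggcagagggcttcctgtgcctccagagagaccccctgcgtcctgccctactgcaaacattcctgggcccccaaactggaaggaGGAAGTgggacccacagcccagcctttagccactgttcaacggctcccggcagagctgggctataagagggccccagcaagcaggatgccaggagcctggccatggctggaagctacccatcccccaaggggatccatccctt
Ltf: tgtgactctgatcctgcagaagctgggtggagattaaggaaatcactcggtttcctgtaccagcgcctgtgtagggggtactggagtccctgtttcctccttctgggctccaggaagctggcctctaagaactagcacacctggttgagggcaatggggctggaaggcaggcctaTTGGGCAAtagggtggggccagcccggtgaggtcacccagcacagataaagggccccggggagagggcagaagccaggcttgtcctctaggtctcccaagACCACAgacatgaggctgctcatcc
Ngp: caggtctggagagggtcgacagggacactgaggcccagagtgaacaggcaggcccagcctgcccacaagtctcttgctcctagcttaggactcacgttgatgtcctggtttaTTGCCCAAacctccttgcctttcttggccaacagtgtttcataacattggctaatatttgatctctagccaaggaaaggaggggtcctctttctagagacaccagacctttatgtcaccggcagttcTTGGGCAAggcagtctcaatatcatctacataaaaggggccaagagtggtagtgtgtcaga
The motifs searched were GGAAGT (ETS, ACTTCC on the other strand), TTGCNNAA (C/EBP, TTNNGCAA), TGTGGT (RUNX, ACCACA) and AACNGTT (MYB). The ETS letters stood in 5 of 5 primary granule windows and in 1 of 5 secondary granule windows, that of Cd177, against 23.8% of all 32851 RefSeq windows of this length. In Elane and Prtn3 the match began 83 and 93 bases before the start site. The C/EBP letters stood in 3 of 5 secondary granule windows (Ltf, Ngp and Retnlg) and in 1 of 5 primary granule windows (Ms4a3), against 10.8% of all windows, and Ngp held 2 matches. The RUNX letters stood in 1 window of each set (Ctsg and Ltf, 16.8% of all windows) and the MYB letters in 0 of 10 (4.45%). A single member window, that of Ms4a3, held both the ETS and the C/EBP letters, as did 2.56% of all windows. These matches are a description of letters and not of bound sites.

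Total counts per library ran from 28099685 to 40008114. Nlrp3 itself averaged 7.90 ± 2.66 CPM (read counts scaled to a common library size; SD, n = 10) in KI ASK1i and 11.1 ± 3.45 CPM (n = 5) in KI control, against 2.73 ± 0.492 CPM (n = 8) in WT ASK1i and 3.03 ± 1.05 CPM (n = 10) in WT control. All 8 hepatocyte markers were detected in each group, and Alb, serum albumin, averaged 43600 CPM in KI ASK1i, 30600 CPM in KI control, 99600 CPM in WT ASK1i and 102000 CPM in WT control. The library labelled KI ASK1i replicate 5 stood apart from its group. It had the lowest Nlrp3 level of the KI ASK1i libraries, 2.10 CPM, and lay at 59.2 on the first principal component (62.2% of the variance), where the WT libraries ran from 45.9 to 74.1 and the other KI libraries from -103 to -54.8. Its granule gene counts were far below those of the other KI libraries: 1 Mpo count, 3 Elane counts, 25 Prtn3 counts, 8 Ltf counts, 8 Ngp counts and 21 Retnlg counts, with Ctsg and Ms4a3 at 0, where 3 counts in this library are 0.0914 CPM. Most of these levels lay within the range of WT ASK1i, but Prtn3 (0.762 CPM) lay below every WT library and Ltf (0.244 CPM) above every WT ASK1i library. Values include it except where its removal is stated.

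On control chow, each of the 10 granule genes rose in KI livers. The median log2 fold change was 8.55 for the primary set and 8.02 for the secondary set, against -0.03 over all genes tested. Of all genes tested, 56.7% changed in this comparison, 27.8% rising and 28.9% falling, so a change by itself was common, and each of the 10 members was also higher in all 5 KI control libraries than in any of the 10 WT control libraries, as were 16.3% of all genes. Of the 10 members, 3 (Prtn3, Ngp and Retnlg) had enough counts in WT livers alone to pass the low-count filter. The other 7 entered the test through the KI libraries. In whole liver, more mature neutrophils, more of their precursors and more RNA per cell cannot be told apart.

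**Figure D1:**
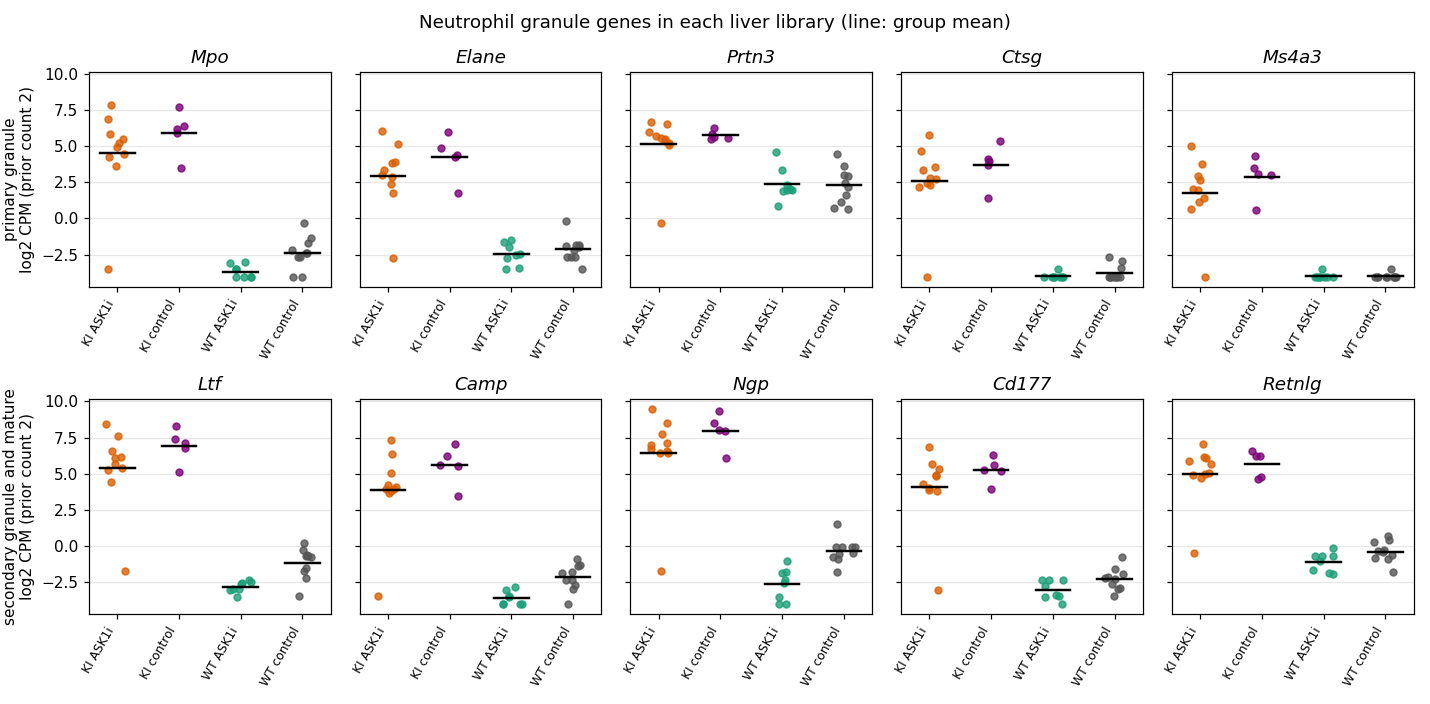
Each point is 1 library, with its log2 CPM (prior count 2) on the vertical axis and the 4 groups on the horizontal axis, and the black line is the group mean. KI points lie above WT points in each panel except for the library labelled KI ASK1i replicate 5, and the gap is smallest for Prtn3, which had at least 44 counts in every WT library.

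Mpo encodes myeloperoxidase, which makes hypochlorous acid in the phagosome. It had 73.2, 211, 61.9, 11.0 and 86.6 CPM in the 5 KI control libraries, against a lowest of 0, a median of 0.128 and a highest of 0.753 CPM in WT control. The groups did not overlap, and the KI control libraries themselves differed by over an order of magnitude. Mpo rose by 8.55 on the log2 scale (SE 0.92, edgeR quasi-likelihood test, adjusted p = 1.64e-08). Elane encodes neutrophil elastase. It had 21.1, 62.3, 18.9, 3.42 and 29.7 CPM in KI control, against a lowest of 0.0307, a median of 0.178 and a highest of 0.809 CPM in WT control, with the same library lowest and the same library highest as for Mpo. Elane rose by 6.70 on the log2 scale (SE 0.82, edgeR adjusted p = 1.28e-07).

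Ctsg (cathepsin G, a serine protease) and Ms4a3 (a membrane protein of granulocyte and monocyte progenitors) were nearly absent from WT livers. Ctsg had 2.64 to 40.5 CPM in KI control, and in WT control 6 counts in all over 10 libraries, 7 of which had 0. Ms4a3 had 1.45 to 20.1 CPM in KI control, and in WT control a single count in all. The ratio of summed counts, scaled for library size, was 932 for Ctsg (95% interval 428 to 2540) and 3050 for Ms4a3 (546 to 120000). These intervals cover counting error only. Both genes passed the test (edgeR adjusted p = 1.84e-08 for Ctsg and 2.69e-08 for Ms4a3), and their fitted log2 fold changes of 9.11 and 10.07 depend on the prior count.

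Prtn3 encodes proteinase 3, the protease neighbouring Elane, and its pattern was its own. It had 46.5, 76.2, 50.9, 47.9 and 57.9 CPM in KI control, against a lowest of 1.48, a median of 4.98 and a highest of 22.4 CPM in WT control. The groups did not overlap, but no WT control library had fewer than 44 Prtn3 counts, and the KI control libraries lay close together. Prtn3 rose by 2.71 on the log2 scale (SE 0.57, edgeR adjusted p = 0.000191), the smallest change of the 10. No L code, a part of the sample titles whose meaning is not stated, held both KI control and WT control libraries. With the L code as a term in place of the title set, Prtn3 no longer passed (log2 fold change 1.32, edgeR adjusted p = 0.224), and the other 9 members still did, with log2 fold changes of 6.08 to 9.68.

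Among the secondary granule genes, Ngp (neutrophilic granule protein, of the cystatin family) had the highest level. It had 371, 632, 247, 67.3 and 256 CPM in KI control, against a lowest of 0.223, a median of 0.752 and a highest of 2.72 CPM in WT control. Ltf, the iron-binding protein lactoferrin, had 171, 310, 111, 34.3 and 137 CPM in KI control, against a lowest of 0.0318, a median of 0.540 and a highest of 1.08 CPM in WT control. The order of the 5 KI control libraries was the same for both genes, with replicate 2 highest and replicate 4 lowest. Ngp rose by 8.45 (SE 0.82) and Ltf by 8.26 (SE 0.80) on the log2 scale, with edgeR adjusted p = 4.41e-09 and 3.99e-09.

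Camp, the antimicrobial peptide precursor cathelicidin, had 73.6, 134, 49.2, 10.9 and 45.8 CPM in KI control, against 0 to 0.466 CPM in WT control, and rose by 8.02 on the log2 scale (SE 0.83, edgeR adjusted p = 1.07e-08). Cd177, a surface glycoprotein of neutrophils, had 14.9 to 79.3 CPM in KI control and 0.0307 to 0.528 CPM in WT control, and rose by 7.83 (SE 0.75, edgeR adjusted p = 3.73e-09). Retnlg, a resistin-like secreted protein of mature neutrophils, had 75.8, 95.3, 72.8, 24.8 and 27.7 CPM in KI control, against a lowest of 0.223, a median of 0.697 and a highest of 1.55 CPM in WT control. It rose by 6.26 on the log2 scale (SE 0.59, edgeR adjusted p = 3.27e-09), the smallest change of the secondary set. KI control replicate 1P was low for Retnlg beside its high Mpo and Elane levels.

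On the ASK1i diet the same contrast gave the same direction for each gene. Each of the 10 members rose in KI ASK1i relative to WT ASK1i, where 59.1% of all genes changed, 30.3% rising and 28.8% falling. The median log2 fold change was 9.87 for the primary set and 10.11 for the secondary set, against 0.01 over all genes. For 9 of the members, 9 of 10 KI ASK1i libraries lay above every WT ASK1i library, and for Ltf 10 of 10 did, where 13.9% of all genes had at least 9 of 10. The exception was replicate 5. Without it, all 9 KI ASK1i libraries lay above every WT ASK1i library for each of the 10 members (13.0% of all genes), and each of the 10 again passed.

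Mpo had a lowest of 0.0305, a median of 34.5 and a highest of 231 CPM in KI ASK1i, and a lowest of 0, a median of 0.0134 and a highest of 0.0647 CPM in WT ASK1i, 6 counts in all over 8 libraries. The count ratio was 2640 (95% interval 1210 to 7200). Ctsg and Ms4a3 had 1 count each in all of WT ASK1i, and their ratios were 3580 (643 to 142000) and 2030 (364 to 80200). Elane had a median of 8.99 CPM (0.0914 to 67.0) in KI ASK1i and of 0.114 CPM (0.0268 to 0.294) in WT ASK1i, and rose by 6.87 on the log2 scale (SE 0.86, edgeR adjusted p = 9.88e-08). The intervals of Ctsg and Ms4a3 span more than an order of magnitude because each rests on 1 WT count.

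Prtn3 had a median of 46.5 CPM (0.762 to 105) in KI ASK1i and of 3.99 CPM (1.79 to 24.8) in WT ASK1i. It rose by 2.86 on the log2 scale (SE 0.55, edgeR adjusted p = 5.1e-05) and by 3.02 (edgeR adjusted p = 1.62e-06) without replicate 5, whose 0.762 CPM lay below every WT ASK1i library. Ngp had a median of 115 CPM (0.244 to 716) in KI ASK1i and of 0.124 CPM (0 to 0.410) in WT ASK1i, and rose by 10.44 (SE 0.98, edgeR adjusted p = 1.67e-09). Retnlg had a median of 41.7 CPM (0.640 to 131) in KI ASK1i and of 0.481 CPM (0.199 to 0.850) in WT ASK1i, and rose by 6.89 (SE 0.63, edgeR adjusted p = 1.19e-09). Ltf, Camp and Cd177 rose by 10.11, 10.23 and 8.76 on the log2 scale (edgeR adjusted p = 2.08e-09, 7.69e-09 and 2.45e-09). Here 2 L codes held both genotypes. Within L1 (4 KI ASK1i and 2 WT ASK1i libraries) the differences in mean log2 CPM were 3.54 for Prtn3 and 6.05 to 9.83 for the other members. Within L7 (1 and 2 libraries) they were 3.22 for Prtn3 and 7.02 to 10.33 for the others.

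**Figure D2:**
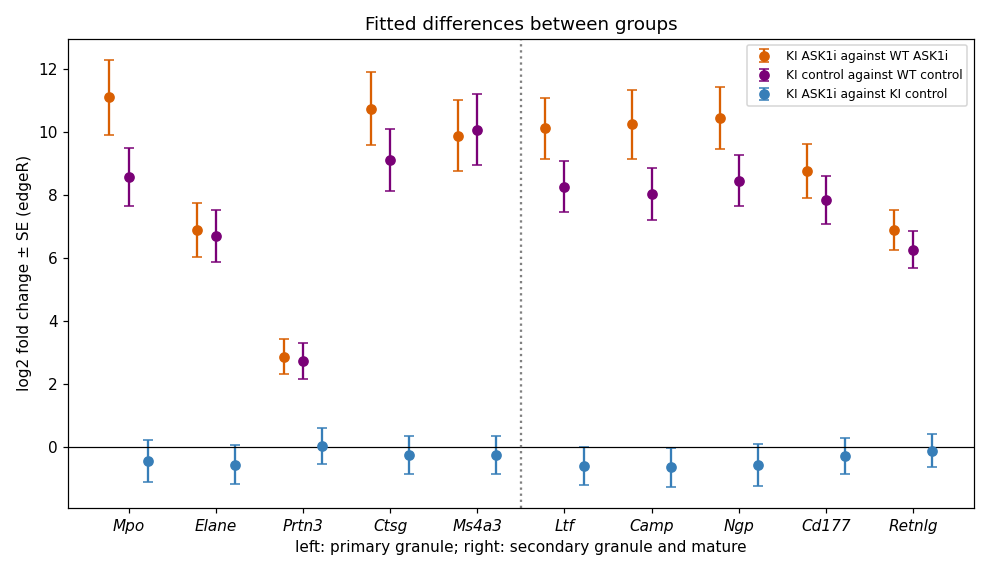
Log2 fold changes of each member from edgeR, with bars of 1 SE, for KI against WT on each diet and for KI ASK1i against KI control. The differences between genotypes lie between 6.26 and 11.09 except for Prtn3 (2.86 and 2.71), and the diet differences within KI lie between -0.65 and 0.04.

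The differences between genotypes were not shown to depend on the diet. The interaction, the diet difference in KI minus that in WT, had edgeR adjusted p of 0.685 to 0.993 over the 10 members, with 0 members at an unadjusted p under 0.05 and 0 members by DESeq2. Over all genes edgeR called 0 (0% of genes tested), with 1251 at an unadjusted p under 0.05, and DESeq2 called 16. The interaction estimates were uncertain where WT levels were near 0, as for Ms4a3 (-0.20, SE 3.54) and Mpo (2.54, SE 2.23), and narrower for Prtn3 (0.15, SE 0.79) and Retnlg (0.63, SE 0.86). For Ms4a3 the SE of the diet difference in WT alone was 6.23, so SEs at counts near 0 are rough.

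Within KI livers, no difference of a granule gene between the diets passed the test. With edgeR, 0 of 10 members were called and 0 were at an unadjusted p under 0.05, where 0.0536% of all genes (8 genes) were called, and DESeq2 called 0 members and 37 genes. Mean levels were lower in KI ASK1i than in KI control for each of the 10 members, from 0.579 of the KI control mean for Camp to 0.932 for Prtn3. These means include replicate 5. Without replicate 5 Prtn3 averaged 57.8 CPM in KI ASK1i, above the 55.9 CPM of KI control. The other members stayed lower, with Camp at 40.4 CPM in KI ASK1i without replicate 5 and 62.7 CPM in KI control. The fitted log2 differences were -0.65 (SE 0.61) for Camp, -0.60 (SE 0.61) for Ltf, -0.58 (SE 0.66) for Ngp, -0.45 (SE 0.66) for Mpo, -0.12 (SE 0.52) for Retnlg and 0.04 (SE 0.57) for Prtn3, whose mean and fit differ in sign. The SEs, which describe the uncertainty of each fitted difference, are as large as most of these values. Differences of this size were therefore neither shown nor excluded. The median over members was -0.37, against 0.03 over all genes.

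Single libraries moved these estimates. Without KI ASK1i replicate 2, the library with the highest level of each member, the log2 differences ran from -1.31 for Camp to -0.14 for Prtn3 (edgeR adjusted p from 0.276 to 0.929). Without KI ASK1i replicate 5 they ran from -0.49 for Camp to 0.19 for Prtn3, and Retnlg was at 0.06. Within L1, the 4 KI ASK1i libraries lay below the single KI control library on average for 9 of the members, by 0.20 (Prtn3) to 1.50 (Elane) in mean log2 CPM, and above it by 0.88 for Retnlg. Within L7 the single KI ASK1i library lay above the mean of the 4 KI control libraries for each member, by 0.19 (Retnlg) to 1.08 (Mpo).

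Within WT livers, 0 of 10 members were called for the inhibitor diet by edgeR, where 1.4% of all genes (209 genes) were called, 1.13% as higher and 0.268% as lower. Ngp was the only member at an unadjusted p under 0.05. It had a lowest of 0, a median of 0.124 and a highest of 0.410 CPM in WT ASK1i, against a lowest of 0.223, a median of 0.752 and a highest of 2.72 CPM in WT control. The groups overlapped, with 6 of 8 WT ASK1i libraries below every WT control library. The log2 difference was -2.58 (SE 1.02, unadjusted p = 0.0166, edgeR adjusted p = 0.232), and DESeq2 called it (log2 difference -2.54, adjusted p = 0.0269), as did edgeR fitted on the 2 WT groups alone (-2.37, adjusted p = 0.0167).

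The sexes are unequal between the WT groups. In females Ngp had 0.0268 to 0.226 CPM in WT ASK1i (n = 4) and 0.519 to 2.72 CPM in WT control (n = 7), without overlap. In males it had 0 to 0.410 CPM in WT ASK1i (n = 4) and 0.223 to 0.614 CPM in WT control (n = 3), with overlap. Within L6, the 1 L code that held both WT diets, Ngp averaged 0.0909 CPM in WT ASK1i and 0.774 CPM in WT control (4 libraries each), but 3 of the 4 WT ASK1i libraries were male and 3 of the 4 WT control libraries female, so the sexes were unequal there too. All 10 fitted differences were negative, in both sets. The mean of Mpo in WT ASK1i was 0.114 of that in WT control (SE of the log2 difference 2.06, edgeR adjusted p = 0.554), that of Ctsg 0.182 and that of Elane 0.660, whereas the mean of Prtn3 was 1.04 of that in WT control and that of Ms4a3, with 1 count in each group, was also higher, both unlike their fits in sign. The other secondary granule genes were also lower in mean in WT ASK1i, with Ltf at 0.0846 ± 0.0353 CPM (SD, n = 8) in WT ASK1i and 0.476 ± 0.311 CPM (n = 10) in WT control, and did not pass (edgeR adjusted p from 0.381 to 0.734). The summed level of the secondary set was 0.398 to 1.52 CPM in WT ASK1i and 0.540 to 5.66 CPM in WT control. The median library held 0.5 (Camp) to 15 (Retnlg) counts of these genes in WT ASK1i and 4.5 (Cd177) to 22.5 (Ngp) in WT control.

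The balance of the sets can be read from their shares. Of the summed CPM of the 10 genes, the primary set held 27.5% ± 3.42 (SD, n = 9, range 23.1% to 32.6%) in KI ASK1i without replicate 5 and 25.0% ± 4.88 (n = 5, range 18.0% to 30.4%) in KI control. The share was 86.4% ± 8.51 (n = 8) in WT ASK1i and 67.0% ± 22.1 (n = 10) in WT control. The WT shares were nearly all Prtn3, which made up 96.6% ± 2.58 of the summed primary level in WT ASK1i and 88.5% ± 11.0 in WT control, against 43.9% ± 13.0 in KI ASK1i without replicate 5 and 36.1% ± 20.8 in KI control. Summed levels of the primary set were 55.4 to 489 CPM in KI ASK1i without replicate 5 and 66.4 to 410 CPM in KI control, against 1.82 to 25.0 CPM in WT ASK1i and 1.88 to 22.4 CPM in WT control.

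A stage score, the mean log2 CPM of the primary set minus that of the secondary set, weights each gene equally and is a description with no test. It was -1.55 ± 0.356 (SD, n = 10) in KI ASK1i and -1.76 ± 0.417 (n = 5) in KI control, against 0.312 ± 0.356 (n = 8) in WT ASK1i and -0.712 ± 0.720 (n = 10) in WT control. In WT control the score was negative in 9 of 10 libraries although the primary set held most of the summed CPM, which there is mainly Prtn3. Between the KI diets the difference of 0.21 was smaller than the spread of either group. The difference between KI control and WT control was -1.05 with all 10 genes and -0.29 with Prtn3 left out of the primary score, and that between KI ASK1i and WT ASK1i was -1.86 and -1.11. With a prior count of 0.5 in place of 2, the difference between KI control and WT control was -0.41. In WT many values were set by the prior count alone. Ctsg was at 0 in 7 of 8 WT ASK1i and 7 of 10 WT control libraries, and Ms4a3 in 7 of 8 and 9 of 10. The fitted medians on control chow, 8.55 for the primary and 8.02 for the secondary set, were ordered the other way. The score differences between genotypes therefore do not show a shift of stage.

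**Figure D3:**
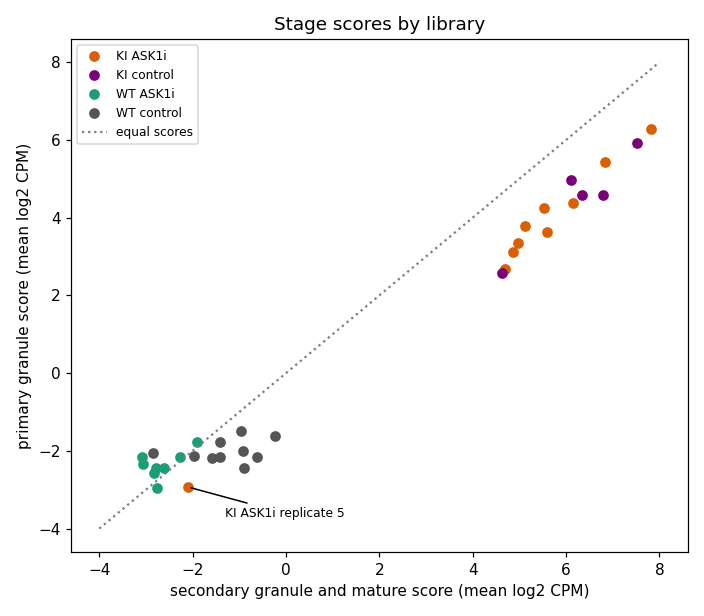
Primary granule score against secondary granule and mature score (mean log2 CPM of each set, prior count 2), 1 point per library, with a dotted line where both are equal. KI libraries lie in a band below the line, and the library labelled KI ASK1i replicate 5 lies with the WT libraries near the lower left.

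Levels per kilobase of transcript allow the genes to be ordered among themselves. In KI control the order in mean CPM per kilobase was Ngp (258 ± 170, SD, n = 5), Retnlg (99.9 ± 52.9), Camp (82.8 ± 60.4), Ltf (55.7 ± 37.0), Prtn3 (54.5 ± 11.9), Mpo (32.2 ± 26.9), Elane (27.5 ± 22.2), Ctsg (17.9 ± 13.9), Cd177 (15.8 ± 8.69) and Ms4a3 (9.70 ± 6.70). Neighbours in this order kept their order in all 5 KI control libraries for Ngp over Retnlg, Camp over Ltf, Mpo over Elane, Elane over Ctsg and Cd177 over Ms4a3. Retnlg over Camp and Ctsg over Cd177 held in 3 of 5 libraries and Ltf over Prtn3 in 2 of 5, so these neighbours were not separated. In KI ASK1i without replicate 5, Ngp (176 CPM per kilobase) and Retnlg (93.4) were again the highest and Ms4a3 (8.14) the lowest, whereas in WT ASK1i and WT control Prtn3 was the highest, at 7.00 and 6.72 CPM per kilobase.

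Among the KI libraries the granule genes varied widely and together. Over the 14 KI libraries other than KI ASK1i replicate 5, each member was highest in KI ASK1i replicate 2, and each was lowest in KI control replicate 4, KI ASK1i replicate 6 or, for Cd177, KI ASK1i replicate 3. The highest level was 20.1 to 22.2 times the lowest for Mpo, Elane, Ctsg and Ms4a3. It was 16.3 times for Ltf, 14.3 times for Camp, 10.6 times for Ngp, 8.24 times for Cd177 and 5.26 times for Retnlg. Prtn3 stood outside the order of its set, with 3.14 times. The SD of log2 CPM within a diet was 1.28 to 1.40 for the other 4 primary granule genes, 0.81 to 1.31 for the secondary set and 0.49 for Prtn3.

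**Figure D4:**
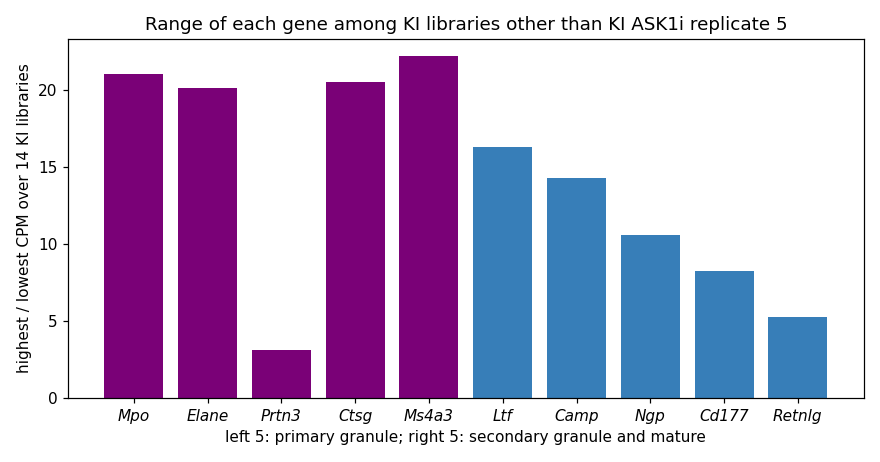
Bars give the highest CPM of each gene divided by its lowest over 14 KI libraries, for the primary set on the left and the secondary granule and mature set on the right. Mpo, Elane, Ctsg and Ms4a3 exceed 20, Retnlg has 5.26 and Prtn3 has 3.14.

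With the mean of each diet group removed, the members of a set followed each other closely over these 14 libraries. Pearson's r ran from 0.804 to 0.992 (median 0.980) over the 10 pairs within the primary set, from 0.825 to 0.983 (median 0.944) over the 10 pairs within the secondary set, and from 0.660 to 0.980 (median 0.934) over the 25 pairs across sets. The pairs share libraries and depth, and these values are a description. The primary and secondary scores had r = 0.964 and Spearman's rho = 0.895, and r = 0.925 without the 2 libraries farthest from the median of the secondary score. Mpo and Elane had r = 0.992 (rho = 0.991, r = 0.983 without 2 libraries). Mpo and Retnlg, an early and a late gene, had r = 0.796 (rho = 0.697, r = 0.646 without 2 libraries), the loosest relation of these. Ltf and Retnlg, both of the secondary set, had r = 0.845, and Mpo and Ltf, of different sets, had r = 0.971.

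Ratios within a library show the same. Mpo was 3.60 ± 0.497 times Elane (SD, n = 9, range 2.61 to 4.22) in KI ASK1i without replicate 5 and 3.25 ± 0.214 times (n = 5, range 2.91 to 3.47) in KI control. Ngp was 2.30 ± 0.679 times Ltf in KI ASK1i without replicate 5 and 2.05 ± 0.145 times in KI control. The ratio of Mpo to Retnlg, by contrast, ran from 0.410 to 1.77 in KI ASK1i without replicate 5 and from 0.443 to 3.13 in KI control. The lowest ratios were in the libraries with the lowest Mpo, KI ASK1i replicate 6 and KI control replicate 4, and the highest was in KI control replicate 1P. A ratio within the secondary set, Ltf to Retnlg, also varied. It ran from 0.702 to 2.78 in KI ASK1i without replicate 5 and from 1.38 to 4.95 in KI control.

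Prtn3 and Elane lie 3139 bases apart on chromosome 10 (Prtn3 chr10:79879667-79883172 and Elane chr10:79886312-79888216, mm10, both on the plus strand), and their levels differed in both genotypes. In KI libraries without replicate 5 they moved together (r = 0.848, rho = 0.758, r = 0.894 without 2 libraries, n = 14), but Elane was 0.0996 to 0.638 times Prtn3 in KI ASK1i without replicate 5 and 0.0715 to 0.817 times in KI control. In WT livers Prtn3 had 44 to 845 counts per library and Elane 1 to 23, and over the 18 WT libraries Prtn3 had r between -0.326 and 0.274 with the other members. In WT males Prtn3 had 1.79 to 24.8 CPM in ASK1i (n = 4) and 5.56 to 22.4 CPM in control (n = 3), and in WT females 3.74 to 4.86 CPM in ASK1i (n = 4) and 1.48 to 12.5 CPM in control (n = 7). The table's Prtn3 row holds 2 transcript records, which start at 79879667 and 79880980, and the gene-level count does not separate them. Which cells held the Prtn3 RNA of WT livers was not tested.

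**Figure D5:**
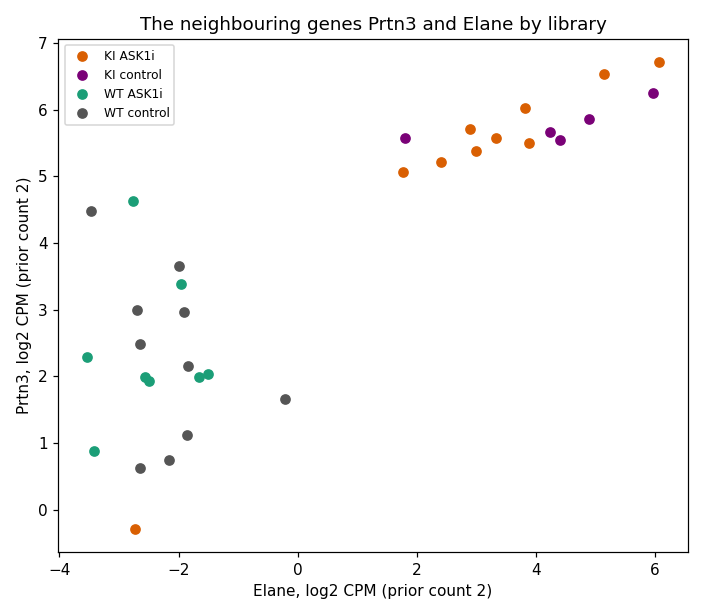
Log2 CPM (prior count 2) of Prtn3 on the vertical axis against its neighbour Elane on the horizontal axis, 1 point per library, coloured by group. KI libraries form a rising band at the upper right, WT libraries spread along the Prtn3 axis at low Elane, and the library labelled KI ASK1i replicate 5 is the lowest point for Prtn3.

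Genes whose levels followed the WT variation of Prtn3 were looked up after the Prtn3 values were seen. Over the 18 WT libraries, among 11320 genes, the highest r values were those of Krtcap2 (0.841), Agfg1 (0.817), Isyna1 (0.811), Klkb1 (0.797) and Dsg1c (0.790), and the lowest were those of Acsl1 (-0.841), Serinc2 (-0.835) and Ei24 (-0.823).

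Over the 14 KI libraries and 11806 genes, the genes most like the primary score were Knstrn (r = 0.994), Myb (0.987), Hmgb2 (0.986), Serpinb1a (0.984) and Ccnb2 (0.980). Knstrn and Ccnb2 act in mitosis, Myb is a transcription factor of progenitors, and Hmgb2 is a chromatin protein. Those most like the secondary score were Anxa1 (0.996), Itgb2l (0.994), S100a9 (0.987), Hmgb2 (0.982) and S100a8 (0.982). S100a8 and S100a9 form calprotectin, the abundant cytosolic protein of neutrophils. The 2 scores had r = 0.964 with each other and Hmgb2 stood in both lists. A high r with 1 score is thus not particular to its set. For the difference of the scores the values were lower, with Skp2 (0.882), Ccl19 (0.879), Mest (0.863), Gpx8 (0.831) and Afap1l2 (0.823).

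Granule progenitor genes and early neutrophil regulators were counted in a list of 11 genes. In KI control against WT control 8 rose and 1 fell, with a median log2 fold change of 3.19. Not all are regulators: Cd63, Prss57 and Fcnb are among those that rose, and Serpinb1a did not pass (log2 difference 0.15, edgeR adjusted p = 0.794). Beside this list count and each that follows stand the shares over all genes. On the ASK1i diet 30.3% rose and 28.8% fell, and on control chow 27.8% rose and 28.9% fell. Listed genes near 0 in WT livers, such as Prss57 and Fcnb, entered the test through the KI libraries. Such genes could hardly be called lower in KI, so their part in the counts was nearly fixed by the filter. Myb averaged 3.50 CPM in KI control and 0.0657 CPM in WT control (log2 fold change 5.24, SE 0.71, edgeR adjusted p = 4.85e-07). Cd63, a membrane protein of azurophil granules, rose by 2.72 on the log2 scale (SE 0.28, edgeR adjusted p = 7.72e-09). Runx1 rose by 3.19 (SE 0.35) and Spi1, which encodes PU.1, by 2.51 (SE 0.29) on the log2 scale (edgeR adjusted p = 1.79e-08 and 4.12e-08), and Csf3r, the receptor of the growth factor G-CSF, by 3.73 (SE 0.35, edgeR adjusted p = 2.83e-09). Cebpa, which hepatocytes also express, fell by 0.59 on the log2 scale (SE 0.17, edgeR adjusted p = 0.00474). Cebpe, the regulator of secondary granule genes, averaged 4.33 CPM in KI control and 2.27 CPM in WT control and did not pass (log2 difference 0.56, SE 0.32, edgeR adjusted p = 0.138). On the ASK1i diet it averaged 3.12 CPM in KI ASK1i and 3.02 CPM in WT ASK1i (log2 difference -0.01, edgeR adjusted p = 0.968), and 8 of the 11 genes rose and 1 fell.

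Further granule and mature neutrophil genes moved the same way. Of 12 other specific and gelatinase granule genes, all 12 rose on each diet (30.3% and 27.8% of all genes), with median log2 fold changes of 4.81 (ASK1i diet) and 4.92 (control chow). Mmp8, a neutrophil collagenase, averaged 41.2 CPM in KI control and 0.313 CPM in WT control (log2 fold change 7.11, SE 0.60, edgeR adjusted p = 1.70e-09), and Chil3, a chitinase-like protein, averaged 186 and 0.414 CPM in these groups. Hp and Lcn2 of this list are also made by hepatocytes. Of 17 mature neutrophil genes in the table, all 17 rose on each diet (medians 3.81 on the ASK1i diet and 4.18 on control chow). S100a8 averaged 522 CPM in KI control and 2.36 CPM in WT control, and Cxcr2, the chemokine receptor of mature neutrophils, 24.8 CPM in KI control and 0.465 CPM in WT control (log2 fold change 5.89, SE 0.52, edgeR adjusted p = 1.93e-09). Csf3r stands in both the early and the mature list.

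Most markers of dividing cells, monocytes and macrophages, eosinophils and platelets were also higher in KI livers. Of 8 proliferation genes, all 8 rose on each diet (30.3% and 27.8% of all genes, also for the lists that follow), with summed levels of 23.1 to 159 CPM in KI ASK1i without replicate 5 and 38.1 to 169 CPM in KI control, against 5.56 to 16.0 CPM in WT ASK1i and 7.21 to 16.2 CPM in WT control. Of 10 monocyte and macrophage genes, 10 rose on the ASK1i diet and 9 on control chow (summed 527 to 1200 CPM in KI ASK1i without replicate 5 and 863 to 1290 CPM in KI control, against 273 to 381 CPM in WT ASK1i and 261 to 546 CPM in WT control). Of 6 eosinophil genes 5 rose on each diet (summed 2.30 to 36.3 and 5.90 to 19.0 CPM in these KI groups, against 0.137 to 0.678 and 0.0954 to 0.774 CPM in WT ASK1i and WT control). Epx, Prg3 and Ear6 of the eosinophil list averaged at most 0.0098 CPM in either WT group and entered the test through the KI libraries. All 5 megakaryocyte and platelet genes rose on each diet.

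Of 8 markers of stem and progenitor cells 5 rose and 1 fell on each diet, and the ranges of their summed level overlapped, with 58.8 to 78.8 CPM in KI ASK1i without replicate 5 and 60.8 to 80.5 CPM in KI control, against 61.8 to 99.5 CPM in WT ASK1i and 68.2 to 94.8 CPM in WT control. Of 8 erythroid genes 7 were tested, and 3 rose and 3 fell in KI ASK1i, and 1 rose and 3 fell in KI control. Over all genes 30.3% rose and 28.8% fell in KI ASK1i, and 27.8% rose and 28.9% fell in KI control. Of 6 mast cell and basophil genes measured, 4 had enough counts for the test, and 4 rose in KI ASK1i and 3 in KI control. Kit, among those tested, is counted with the stem and progenitor markers too. The others tested, Cpa3, Mcpt8 and Ms4a2, averaged at most 0.0332 CPM in either WT group. They entered the test through the KI libraries and could hardly be called lower there. Cpa3, a mast cell protease, averaged 0.511 CPM in KI control and 0.00337 CPM in WT control. Of 8 hepatocyte genes 6 fell in KI ASK1i and 7 in KI control, and their summed level was 36800 to 68900 CPM in KI ASK1i without replicate 5 and 35500 to 58200 CPM in KI control, against 114000 to 153000 CPM in WT ASK1i and 116000 to 144000 CPM in WT control. The part that these other cell types have in the granule gene levels was not tested.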

How the data were processed

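Fresh frozen liver gave the RNA, and a stranded mRNA kit the libraries, per the labels' protocols. The authors deposited unnormalised RSEM expected counts per gene, and 91.4% to 93.7% of each library's values were whole. The submitters' processing notes name CASAVA 1.8.2, STAR 2.4, RSEM 1.2.14 and build mm10, with no settings. RSEM shares reads out among genes they match equally.

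After rounding, all 33 libraries entered 1 edgeR model (4.0.16, in R 4.3.3) with terms for group, sex and title set (numbered, or numbered with P). It used TMM scaling, the filterByExpr filter and robust two-sided quasi-likelihood tests, with Benjamini-Hochberg adjustment over 14934 genes per comparison and a threshold of 0.05. The prior count was 0.125 for log2 fold changes and 2 for log2 CPM. SE is the absolute log2 fold change divided by the square root of its F statistic. It approximates a standard error and is unreliable where counts are near 0. Alternatives were RLE size factors, DESeq2 1.42.0, no filter, unrounded values, other covariates, subsets of libraries, a replicate block and each library left out in turn. Among 128 pairs of libraries of the same group none was a repeat (lowest chi-square per gene 23.6). Promoters and their coordinates are RefSeq's, GRCm38.p6.

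The members, lists and tests were chosen with earlier results of these data known. Each comparison names all 10 members, and each list at most 4 genes, those of smallest p in KI control against WT control. Myb, Cebpa, Cebpe, Hp and Lcn2 were named after their values were seen. So were Prss57, Fcnb, Serpinb1a, Epx, Prg3, Ear6, Mcpt8, Ms4a2 and Kit in the list counts. Likeness names the 5 genes of highest r above a mean of 1 CPM. Adgre1, Siglecf and Wfdc21 were matched by older symbols, and Ly6g, Mcpt4 and Tpsb2 are not analysed here.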

Additional observations from a re-analysis of the deposited data

Results flagged for a closer look

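For each member and group, the highest and the lowest library were compared with the rest of the group (Dixon's criterion at 95%), and 17 values stood apart. For independent and normally distributed values, chance would give about 1 in 20 groups. CPM values are skewed and the members moved together, so the 17 values are not separate events against that rate. On the CPM scale KI ASK1i replicate 5 was not flagged, although its levels were far below those of its group. KI ASK1i replicate 2 stood above its group for 8 members: Mpo at 231 CPM (next library 121), Elane at 67.0 CPM (35.3), Ctsg at 54.2 CPM (25.9) and Ms4a3 at 32.1 CPM (13.8) of the primary set, and Camp at 157 CPM (82.2), Ngp at 716 CPM (362), Cd177 at 115 CPM (49.8) and Retnlg at 131 CPM (69.4) of the secondary set.

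Among WT control libraries, replicate 3 was high for Mpo (0.753 CPM) and Ngp (2.72 CPM), and replicate 4 was high for Elane (0.809 CPM) and Cd177 (0.528 CPM). Prtn3 was high in WT ASK1i replicate 7 (24.8 CPM, next 10.3) and in WT control replicate 1P (22.4 CPM, next 12.5). The other 3 values are single counts in groups otherwise at 0: Ctsg in WT ASK1i replicate 7 (0.0293 CPM), Ms4a3 in WT ASK1i replicate 1P (0.0295 CPM) and Ms4a3 in WT control replicate 1P (0.0307 CPM). The criterion always flags a single count among zeros.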

How the results depend on the processing

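Over 11 alternative fits and 33 fits that each left out 1 library, the 10 members called for KI ASK1i against WT ASK1i stayed at 10. For KI control against WT control the count was 10 except with the L code as a term (9, without Prtn3, 1.32, adjusted p = 0.224, and 5103 genes called in place of 8466). For both diet comparisons, and for the interaction in the 10 alternative fits that can estimate it, it was 0, except that Ngp was called in WT livers by DESeq2 (count 1) and with only the 2 groups compared (count 1, of 3 members with enough counts there). Leaving out libraries gave 10 to 10, 10 to 10 and 0 to 0.

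The stage score difference of KI control and WT control (-1.05) was -0.41 with a prior count of 0.5, -2.97 as a log2 ratio of summed CPM, -1.65 in males and -0.29 without Prtn3, an alternative chosen after seeing the data, and -1.20 to -0.88 with libraries left out. That of KI ASK1i and WT ASK1i (-1.86) was -4.24 as a log2 ratio, -1.11 without Prtn3 and -1.94 to -1.77 with libraries left out. That of KI ASK1i and KI control (0.21) was -0.03 in males, 0.43 with numbered titles alone and between these under the other alternatives, and 0.10 to 0.36 with libraries left out.

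Differences that missed the threshold changed sign as follows. In WT livers Prtn3 had 0.14 without sex and 0.09 with numbered titles alone, Ms4a3 0.12 without sex, and males alone gave Elane 0.51 and Ctsg 1.07. In KI livers Prtn3 had -0.16 without sex, -0.15 with numbered titles alone and -0.01 with only the 2 groups; the L code gave Ctsg 0.16, Ms4a3 0.01, Cd177 0.06 and Retnlg 0.59, and males gave Retnlg 0.06. For the interaction Elane had -0.11 by DESeq2, -0.12 without sex and -0.96 in males, Prtn3 -0.30 without sex and -0.23 with numbered titles alone, Ms4a3 0.48 with the L code, 0.48 with numbered titles alone and 2.30 in males, and Ctsg -1.29 in males. With libraries left out, WT livers gave -0.57 to 0.16 for Prtn3 and -1.15 to 0.76 for Ms4a3, and KI livers -0.14 to 0.27 for Prtn3, -0.96 to 0.12 for Ctsg, -1.07 to 0.09 for Ms4a3 and -0.57 to 0.08 for Retnlg. The interaction gave -0.61 to 0.54 for Elane, -0.13 to 0.52 for Prtn3 and -1.11 to 0.90 for Ms4a3. The cause was not tested.

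Counts over all genes in WT livers (209) were 365 by DESeq2, 23 with the L code, 19 with numbered titles alone, 0 in males, 133 with the block, 5.11% of genes tested (against 1.4%) with only the 2 groups, and 101 to 375 with libraries left out. In KI livers (8) they were 37 by DESeq2, 4 with RLE size factors or without sex, 0 with the L code, numbered titles alone, males, the block or only the 2 groups, and 0 to 14 with libraries left out. The interaction (0) had 16 by DESeq2, 1 without sex and 0 to 3 with libraries left out.

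Replicate numbers did not pair the libraries: over 37 pairs with the same number the correlation of deviations ran from -0.208 to 0.361, and 4 of 30 libraries correlated best with their own number. With the replicate block 10, 10, 0, 0 and 0 members were called in the 5 comparisons, and the sign turned for Ms4a3 in WT livers (0.08) and Ctsg in KI livers (0.03). WT levels of Mpo, Ctsg, Ms4a3 and Camp rest on few counts, which limits every fold against them.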
